A study of Mus musculus with 24 samples.

Results

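ETS factors are transcription factors that share the ETS domain, a winged helix-turn-helix fold that binds DNA around a GGAA core. Members of the ETS and PEA3 groups act at the end of the RAS and ERK signalling pathway in many tissues. The epithelium-specific members are found mainly in epithelial cells, and in the mammary gland Elf5 is known for its role in the alveolar cells that make milk. H3K4me3 is the histone mark of active gene starts, and it lies mostly at CpG islands, where CFP1 binds unmethylated CpG through its CXXC domain and brings in the SET1 methyltransferase.

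The set described here held 10 ETS genes of the 21755 protein-coding genes that were examined. The 6 general members were Ets1, Ets2, Etv1, Etv4, Etv5 and Etv6, and the 4 epithelial members were Elf3, Elf5, Ehf and Spdef. They were set by name, though with earlier results of these data known, and each was read for an H3K4me3 peak within 250 bp of an annotated transcription start site (TSS), for the width of that peak, for the TSS it covered and for the CpG island there. H3K4me3 was mapped by ChIP-seq in formaldehyde-crosslinked C127 cells, a line from mouse mammary epithelium grown in serum, in 3 replicates with 1 input sample. These cells were a single established line, with no treatment or transgene named in the labels of the H3K4me3 samples. The series had 24 samples in 12 groups, and the 21 samples outside the H3K4me3 ChIP, among them ChIP of CFP1 and its mutants, KDM2B and RNA polymerase II, were not analysed here. Only 1 list of 13451 peaks found in every replicate was used, without heights, so depth is unknown and no value below has a spread between replicates or a test. In bulk chromatin of this kind, a mark on few of the cells and a weak mark on all of them cannot be told apart, and a peak is not a measure of how much RNA a gene makes.

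All 6 general ETS genes had an H3K4me3 peak at a TSS and none of the 4 epithelial ETS genes had one. Over all protein-coding genes the share with a TSS peak was 49.4%. The peaks of the general members had a median width of 3961.5 bp, with a range of 3237 to 5926 bp, against a median of 3254 bp over all 10747 genes with a peak.

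The labelled cell type was read against marker genes on the same list. Of 7 markers of mammary epithelium, 0 had a TSS peak. They were Epcam, Cdh1, Krt8 and Krt18 of luminal cells, all with CpG island promoters, and Krt5, Krt14 and Trp63 of basal cells, all without one. All 3 mesenchymal markers had CpG island promoters and wide peaks. They measured 7153 bp at Vim, which encodes the intermediate filament of mesenchymal cells. At Fn1, which encodes fibronectin, the peak was 7629 bp wide, and at Twist2 7374 bp. Ptprc of blood cells and Pecam1 and Cdh5 of endothelium had no peak and no island promoter. Over all genes 49.4% had a TSS peak, with 72.2% of those with an island promoter and 5.99% of those without one. The basal, blood and endothelial markers were thus in a class where most genes had no peak. The luminal and mesenchymal markers were in a class where most had one, counting islands of any length from 200 bp. That share differed with island length, which is not given for the markers. The C127 cells therefore lacked a peak at each of these epithelial markers as they did at each epithelial ETS gene, and the part of this in the result for the ETS genes was not tested. This short list of markers was chosen with earlier results of these data known, so its counts do not settle the cell type.

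**Figure D1:**
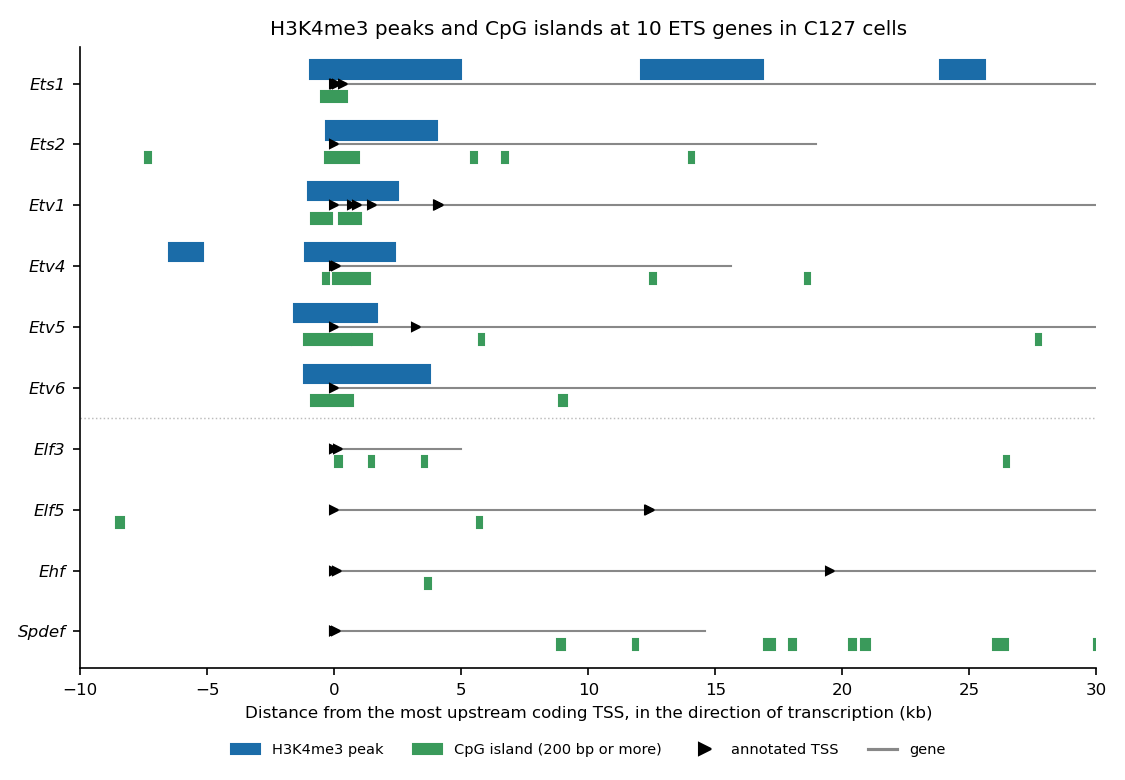
H3K4me3 peaks (blue), CpG islands of at least 200 bp (green), annotated TSSs (black arrowheads) and gene bodies (grey lines) at the 6 general ETS genes, above, and the 4 epithelial ETS genes, under the dotted line, by distance in kb from the most upstream coding TSS in the direction of transcription. A peak lies over the first TSS of all 6 general members and none lies within the plotted range of the epithelial members (the Rnpep peak, 23739 bp upstream of Elf3, is outside it).

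The promoters that the peaks did and did not cover are shown by their sequence at the TSS, because CpG content is part of what the island classes rest on. These stretches do not show the islands as a whole. The Elf3 stretch holds only the edge of the Elf3 island (135258268-135258548). Etv1 is printed at a TSS with an island of 579 bp, and not at its longest island of 839 bp. Of the 10 members, 7 were matched in the RefSeq table of promoters (assembly GRCm38.p6, the same build as mm10). Ets1, Etv4 and Ehf were not printed. Each run of 150 bases is given 5′ to 3′ on the strand of the gene and holds 120 bases before the TSS and 30 from it, and capitals mark each CpG. The promoters of general members that had a peak come first, with Etv1 at its TSS at 38780082.
Ets2, chr16:95701955-95702104, plus strand: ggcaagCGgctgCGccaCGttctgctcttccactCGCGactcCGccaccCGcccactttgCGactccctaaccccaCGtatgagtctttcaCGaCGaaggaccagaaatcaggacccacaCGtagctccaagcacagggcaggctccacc
Etv1, chr12:38779962-38780111, plus strand: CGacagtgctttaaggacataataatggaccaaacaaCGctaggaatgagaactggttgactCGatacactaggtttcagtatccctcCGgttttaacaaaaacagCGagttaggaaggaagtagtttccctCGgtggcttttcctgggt
Etv5, chr16:22439690-22439839, minus strand: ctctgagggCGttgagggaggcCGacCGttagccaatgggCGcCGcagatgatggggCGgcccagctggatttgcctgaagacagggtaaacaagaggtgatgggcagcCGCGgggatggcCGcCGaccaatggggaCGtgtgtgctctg
Etv6, chr6:134035580-134035729, plus strand: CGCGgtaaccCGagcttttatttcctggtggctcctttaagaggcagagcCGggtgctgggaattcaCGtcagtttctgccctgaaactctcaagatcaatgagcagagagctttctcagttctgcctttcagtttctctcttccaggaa
They held 12, 6, 11 and 5 CpGs in the order given. The next promoter is that of a shorter Etv1 transcript that had no peak, shown because it lies in a gene whose upstream promoter had one, and it held 0 CpGs.
Etv1 downstream promoter, chr12:38783350-38783499, plus strand: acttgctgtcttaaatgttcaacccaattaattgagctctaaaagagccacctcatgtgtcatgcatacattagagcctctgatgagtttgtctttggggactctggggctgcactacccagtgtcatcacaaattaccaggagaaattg
The promoters of epithelial members follow. Elf5 is shown at both of its promoters, and none of these TSSs had a peak.
Elf3, chr1:135258539-135258688, minus strand: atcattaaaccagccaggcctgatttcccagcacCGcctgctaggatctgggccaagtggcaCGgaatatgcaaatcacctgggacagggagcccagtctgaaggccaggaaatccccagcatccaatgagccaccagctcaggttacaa
Elf5 upstream promoter, chr2:103411568-103411717, plus strand: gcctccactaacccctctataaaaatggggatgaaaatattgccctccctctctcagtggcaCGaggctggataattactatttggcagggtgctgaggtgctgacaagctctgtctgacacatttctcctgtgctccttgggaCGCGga
Elf5 downstream promoter, chr2:103423942-103424091, plus strand: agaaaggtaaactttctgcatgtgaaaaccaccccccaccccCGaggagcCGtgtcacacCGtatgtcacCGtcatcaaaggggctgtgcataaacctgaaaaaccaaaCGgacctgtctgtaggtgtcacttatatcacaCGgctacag
Spdef, chr17:27728926-27729075, minus strand: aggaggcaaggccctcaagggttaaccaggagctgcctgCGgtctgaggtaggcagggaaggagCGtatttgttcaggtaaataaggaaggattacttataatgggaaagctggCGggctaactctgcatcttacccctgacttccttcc
They held 2, 3, 6 and 3 CpGs. In these short windows the CpG counts of the peak-bearing and the peakless promoters overlapped. Etv6 and Etv1, with a peak, held 5 and 6, and the downstream promoter of Elf5, without one, held 6.

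Over the wider window from 250 bases before to 50 after the most upstream coding TSS, the general members held 7 to 33 CpGs (median 18) and the epithelial members held 4 to 8 (median 6.5), against a median of 12 with quartiles of 4 and 23 over 21668 genes. Etv1 was the general member with the fewest, at 7. It lay level with Spdef, which also held 7, and below Elf3, which held 8. Of all genes with 6 to 10 CpGs in this window, 35.6% had a peak. The shares were 4.80% with 0 to 2 CpGs, 15.8% with 3 to 5 and 63.3% with 11 to 15. From 16 CpGs upwards they lay between 77.4% and 82.6%. At this first TSS Etv1, Elf3, Ehf and Spdef fell in 1 class of CpG content, and of these Etv1 alone had a peak. The class depended in part on the TSS. Among the other Etv1 TSSs with a peak, the windows held 12 CpGs at 38780082, 14 at 38780284 and again 7 at 38780848. The window of the second Elf3 TSS held 11, and those of the downstream Elf5 TSSs held 9 and 10.

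**Figure D2:**
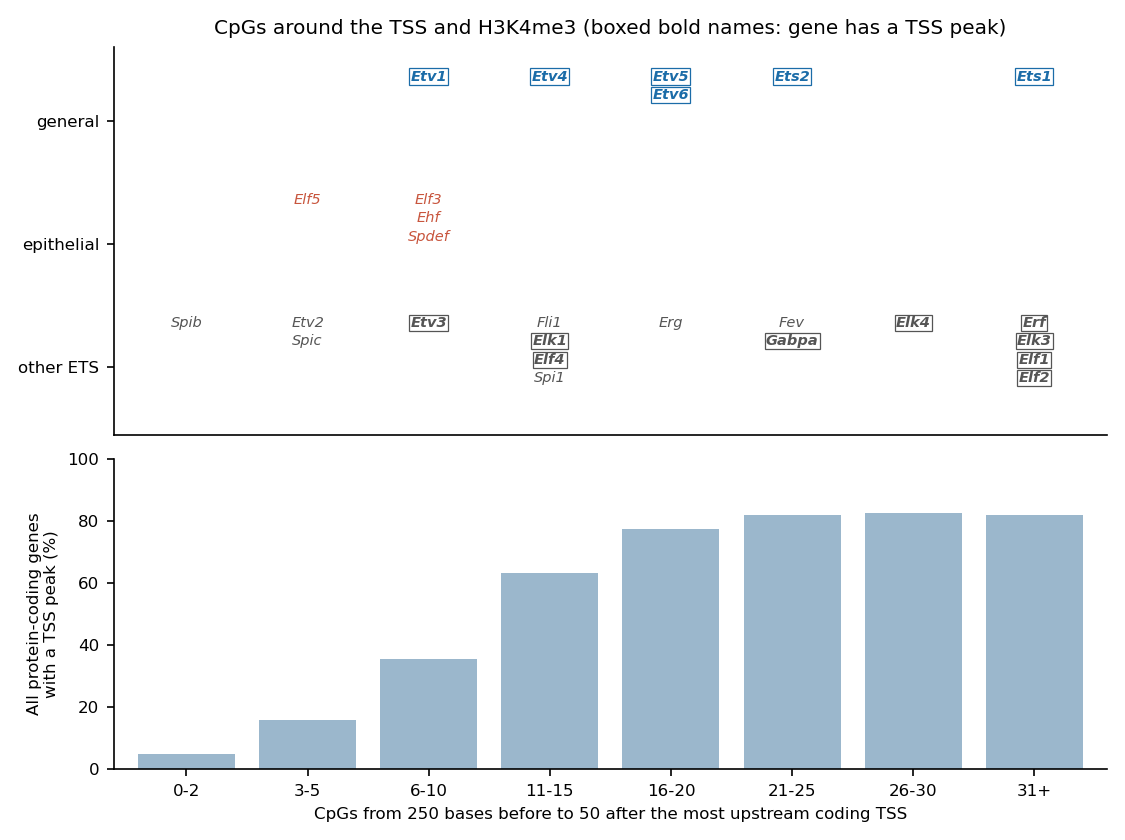
ETS genes placed by the number of CpGs around the first coding TSS, in the upper panel with boxes for genes with a TSS peak, and in the lower panel the percentage of all protein-coding genes with a TSS peak in each class (bars). The general members lie between 7 and 33 CpGs in the promoter window and the epithelial members between 4 and 8, while the share of all genes with a peak is 4.80% at 0 to 2 CpGs and 81.9% at 31 or more.

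CpG islands, counted from a length of 200 bp, a GC fraction of 0.5 and a ratio of observed to expected CpG of 0.6 upwards, set the members apart more clearly. All 6 general members had an island within 250 bp of a TSS, and so did 1 of the 4 epithelial members, Elf3. Among all genes with an island promoter 72.2% had a peak, and among genes without one 5.99% had a peak. Under stricter criteria (500 bp, 0.55 and 0.65) the 6 general members kept an island and Elf3 did not, and 79.3% of all genes with a stricter island had a peak. The island at Elf3 was 281 bp long with 14 CpGs, a GC content of 58.0% and a ratio of 0.60, at the limit of the criteria. Of all genes whose longest promoter island was between 200 and 400 bp, 25.9% had a peak, against 71.6% for 400 to 1000 bp and 80.6% for 1000 bp or more. Read within its own island class, each general member was thus in a class where most genes had a peak, and each epithelial member was in a class where most had none.

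Ets1 and Ets2, the founders of the family and targets of ERK phosphorylation, had peaks of 5926 and 4357 bp. The Ets1 peak (chr9:32695070-32700995) was the widest of the general members and wider than 92.3% of TSS peaks, and it covered all 4 annotated TSSs of the gene. It began 952 bp upstream of the first TSS and ran 4973 bp into the gene, while the island under it was only 1062 bp long with 89 CpGs. The Ets2 peak (chr16:95701746-95706102) was wider than 76.7% of them. It reached 329 bp upstream and 4027 bp downstream of its single TSS at 95702075, and the island of 1338 bp with 115 CpGs lay 98.3% within it. Ets2 had the shortest upstream reach of the general members.

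Etv1, Etv4 and Etv5 form the PEA3 group, whose products switch on genes downstream of FGF and ERK signals and take part in branching of the mammary gland and other organs. Their peaks were close in width, 3566 bp at Etv1 (chr12:38778341-38781906), 3542 bp at Etv4 (chr11:101782995-101786536) and 3237 bp at Etv5 (chr16:22438054-22441290), wider than 59.2%, 58.5% and 49.5% of TSS peaks. These neighbours in the order of widths cannot be said to differ, because the list holds no spread between replicates. Etv4 had a peak over both of its TSSs and an island of 1472 bp with 110 CpGs. Its peak reached 1165 bp upstream and 2376 bp downstream of the first TSS. At Etv5 the reach was 1571 bp upstream and 1665 bp downstream, the most even of the 6, over an island of 1864 bp with 134 CpGs. Etv1 had a reach of 1039 bp upstream and 2526 bp downstream, and its longest island was 839 bp with 44 CpGs. Its TSS at 38780848 lay in the peak but had no island within 250 bp.

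Etv6, which encodes the repressor TEL, had the second widest peak of the general members, 4959 bp (chr6:134034520-134039478), wider than 85.0% of TSS peaks. It reached 1180 bp upstream and 3778 bp downstream of the single basic GENCODE TSS at 134035700. It lay over an island of 1650 bp with 137 CpGs. Measured from the first TSS, all 6 general peaks thus ran farther downstream than upstream, as did those of 83.5% of all genes with a peak. The direction depended on the TSS at 2 of them. From the Etv1 TSS at 38780848 the same peak reached 2507 bp upstream and 1058 bp downstream. The first RefSeq TSS of Etv5 lay 149 bp downstream of the one used, where the 2 reaches differed by only 94 bp. The median reach over all genes was 940 bp upstream and 2138 bp downstream. Ets1, Ets2 and Etv6 ran farther downstream than the upper quartile of all genes, 2801 bp, and Etv5 ran less far than the median. No other coding or lncRNA gene had a TSS in any of these 6 peaks.

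**Figure D3:**
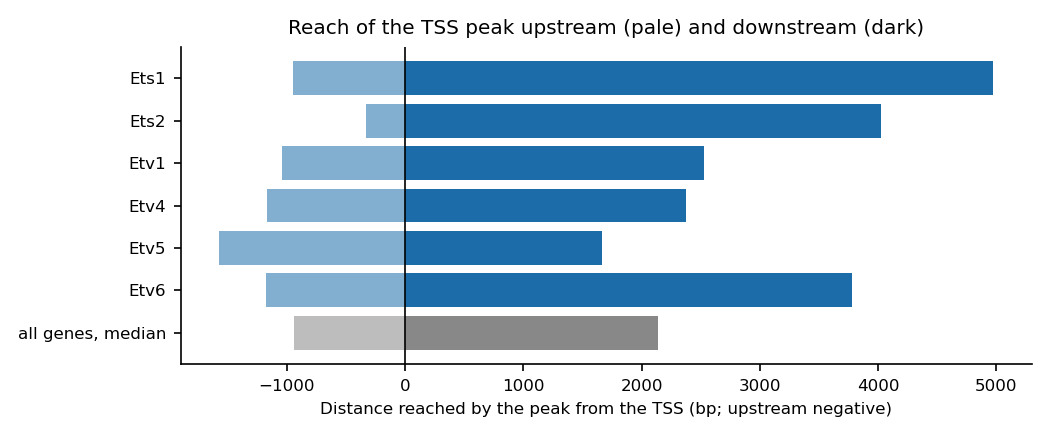
Reach of the H3K4me3 peak in bp upstream and downstream of the most upstream coding TSS of the 6 general ETS genes, in blue, with the median over all genes with a peak in grey. Each of the 6 peaks runs farther downstream, from 1665 bp at Etv5 to 4973 bp at Ets1.

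The general members had 17 annotated TSSs in all, of which 13 had a peak, while the epithelial members had 11, of which 0 had one. Among the 4 general members with more than 1 TSS, Etv1 and Etv5 had at least 1 TSS without a peak, and Ets1 and Etv4 had none. Over all genes with a peak and more than 1 TSS, 24.9% had a TSS without one. Etv1 had a peak at 4 of its 7 TSSs. Its other TSSs, at 38783470, 38783481 and 38783509, lay 1564 to 1603 bp beyond the end of the peak, with no island and 0 CpGs in their windows, as the printed sequence of the downstream promoter shows at the first of them. The unmarked Etv5 TSS at 22436514 lay 1540 bp from the peak, with no island and 2 CpGs in its window. These were the TSSs nearest to a peak that the limit of 250 bp left out, and every TSS counted as having a peak was inside it.

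RefSeq transcripts, used after the data had been seen, gave 16 of 22 TSSs with a peak for the general members and 0 of 18 for the epithelial members. Etv1 had a peak at 5 of 9 RefSeq TSSs and Etv6 at 3 of 4. Their unmarked RefSeq TSSs lay up to 37564 bp and 66849 bp from the nearest peak. RefSeq also placed a TSS of Ets1 59781 bp upstream of the first GENCODE one. It lay 58829 bp from the nearest peak, so the Ets1 peak was at the downstream promoter.

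The epithelial members lay in stretches free of peaks. Elf3 (chr1, minus strand, TSSs at 135258568 and 135258438), which is induced in many epithelia by inflammatory signals, was nearest to one, 23739 bp from the peak of Rnpep. The peak-free stretch around it, between the peaks of Arl8a and Rnpep, was 132906 bp long. Spdef (chr17, minus strand, TSSs at 27728955, 27728953 and 27728889), a factor of luminal and secretory epithelial cells, lay 88288 bp from the peak at D17Wsu92e in a stretch of 181511 bp. Over the 11008 genes without a peak, the nearest peak was at a median of 86397 bp and the stretch had a median of 483376 bp. The stretches around Elf3 and Spdef were longer than those of 24.7% and 31.2% of these genes, so both were in the shorter part of the range.

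Elf5 and Ehf are neighbours on chromosome 2 in head-to-head orientation, with TSSs 108410 bp apart, and no peak lay over either gene or between them. Elf5 (plus strand) had TSSs at 103411688, 103424062 and 103424126, of which the nearest was 58814 bp from the peak of Cat, the catalase gene. Ehf (minus strand), which is expressed in glandular and mucosal epithelia, had TSSs at 103303278, 103303166 and 103283760, and its nearest peak was 179662 bp away. Both genes shared a single peak-free stretch of 407538 bp, from the peak of Apip and Pdhx to that of Cat, longer than those of 47.0% of genes without a peak. Thus the 4 epithelial members occupied 3 separate stretches, and Elf5 and Ehf do not stand for independent loci.

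Ets1 and Ets2 each also had an ETS neighbour of the ERG group. These neighbours, Fli1 and Erg, are known from endothelial and blood cells. Ets1 and Fli1 lay head-to-head with TSSs 154427 bp apart. At the TSS of Fli1 was an island by the looser criteria, 1646 bp long and with 107 CpGs. It held a stretch that met the stricter criteria, and another such stretch lay just beyond it. The Fli1 TSS had no peak, and all 3 peaks over the pair were at Ets1. Ets2 and Erg, also head-to-head, had TSSs 115482 bp apart, and the peaks over the span were the Ets2 peak and a narrow one of 541 bp lying 27066 bp upstream of Ets2. Erg had an island of 399 bp and no peak at any TSS. At these pairs the member with the mark was the general one, and at Elf5 and Ehf neither had it.

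**Figure D4:**
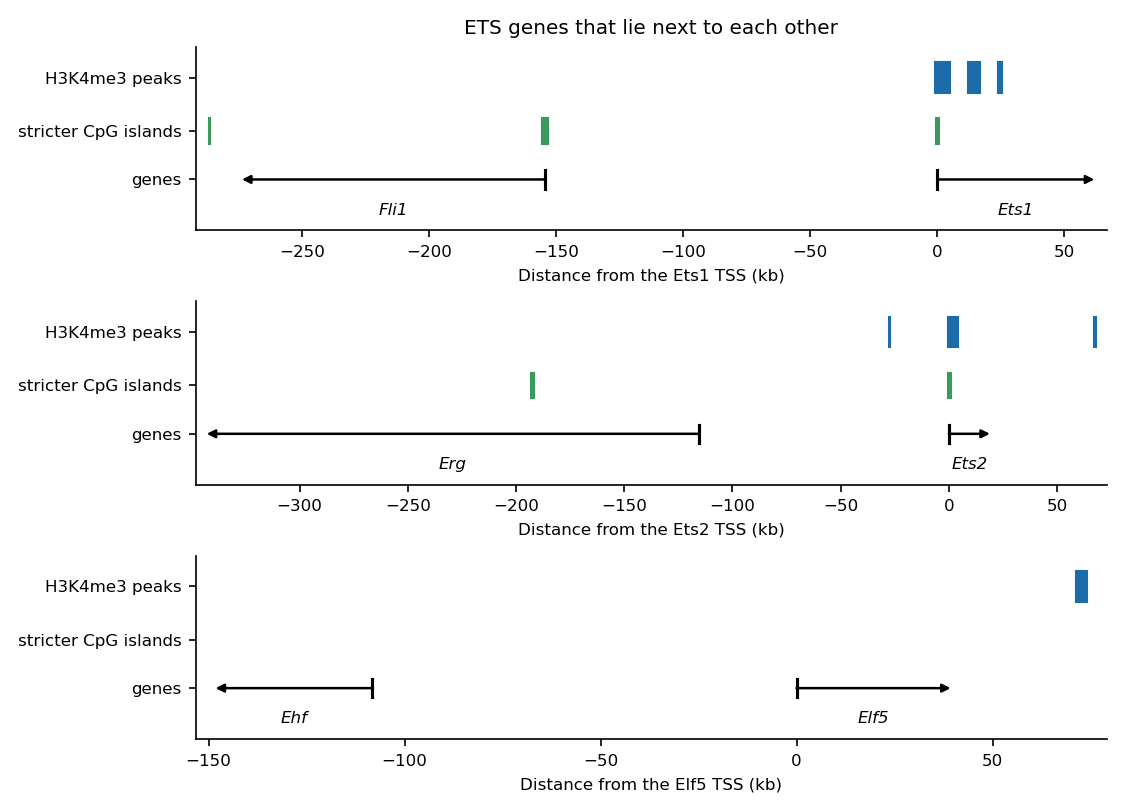
H3K4me3 peaks, stricter CpG islands and gene bodies at Ets1 with Fli1, Ets2 with Erg and Elf5 with Ehf, by distance in kb from the TSS of the first gene named, with a bar at each first TSS and an arrow in the direction of transcription. Peaks lie at the starts of Ets1 and Ets2, stricter islands without a peak lie beside the start of Fli1, and no peak lies between Ehf and Elf5.

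Of the general members, 2 had further peaks inside the gene, Ets1 and Etv6, against 11.5% of all genes with a TSS peak. Ets1 had 2, and 2.37% of genes with a TSS peak had that many or more. The nearer was 4826 bp wide (chr9:32708087-32712912), began 12065 bp downstream of the first TSS and covered the TSS of the lncRNA Gm27240. The farther was 1792 bp wide (chr9:32719853-32721644) and covered no annotated TSS, and neither had a CpG island. Etv6 had an intronic peak of 757 bp (chr6:134200161-134200917), 164461 bp from its TSS and also without an island. Etv4 had a peak of 1315 bp without a TSS or an island 5178 bp upstream of its own TSS. No epithelial member had a peak inside the gene.

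Motifs of the ETS factors themselves were searched on both strands of the wider windows. The site CCGGAAG was in none of the 10 members' windows and in 11.2% of all promoters. The core GGAA, which is in 95.8% of all promoters, matched 3 times at Ets1, 1 time each at Ets2 and Etv5, 5 times at Etv4 and 6 times each at Etv1 and Etv6. At the epithelial members it matched 7 times at Elf3 and Spdef, 5 times at Ehf and 0 times at the first TSS of Elf5. TATAAA, in 12.5% of all promoters, was found at Etv5 and at the first promoter of Elf5. These matches are letters and not binding sites.

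Reads without a unique position were discarded by the authors, and recurring sequence was therefore counted at each TSS. Within 250 bp of the 11 epithelial TSSs none of the 50-bp words recurred elsewhere. Of the 17 general TSSs, 4 had some recurring words, at most 15.5% of them. That highest share was at the Etv1 TSS at 38780848, which had a peak. The others had no peak, with 13.7% at the Etv5 TSS at 22436514 and 0.22% each at the Etv1 TSSs at 38783470 and 38783481.

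The rest of the family was read in the same way. Of 16 other ETS genes, 9 had a TSS peak (56.25%), with a median width of 4660 bp and a range of 1488 to 7418 bp, which overlapped that of the general members. The 3 ELF genes, Elf1, Elf2 and Elf4, which resemble the epithelial Elf3 and Elf5 in name but belong to a broadly expressed subfamily, all had peaks. So did the 3 TCF genes Elk1, Elk3 and Elk4, which act with SRF at serum response genes, the repressors Erf and Etv3, and Gabpa, a factor of nuclear genes for mitochondrial proteins. Erf had the widest peak of the family, 7418 bp (wider than 96.6% of TSS peaks), and Elk1 the narrowest, 1488 bp (wider than 6.57%), over an island of 222 bp. The other 7 genes had none. They were the SPI genes Spi1, Spib and Spic, the ERG genes Erg, Fli1 and Fev, and Etv2.

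**Figure D5:**
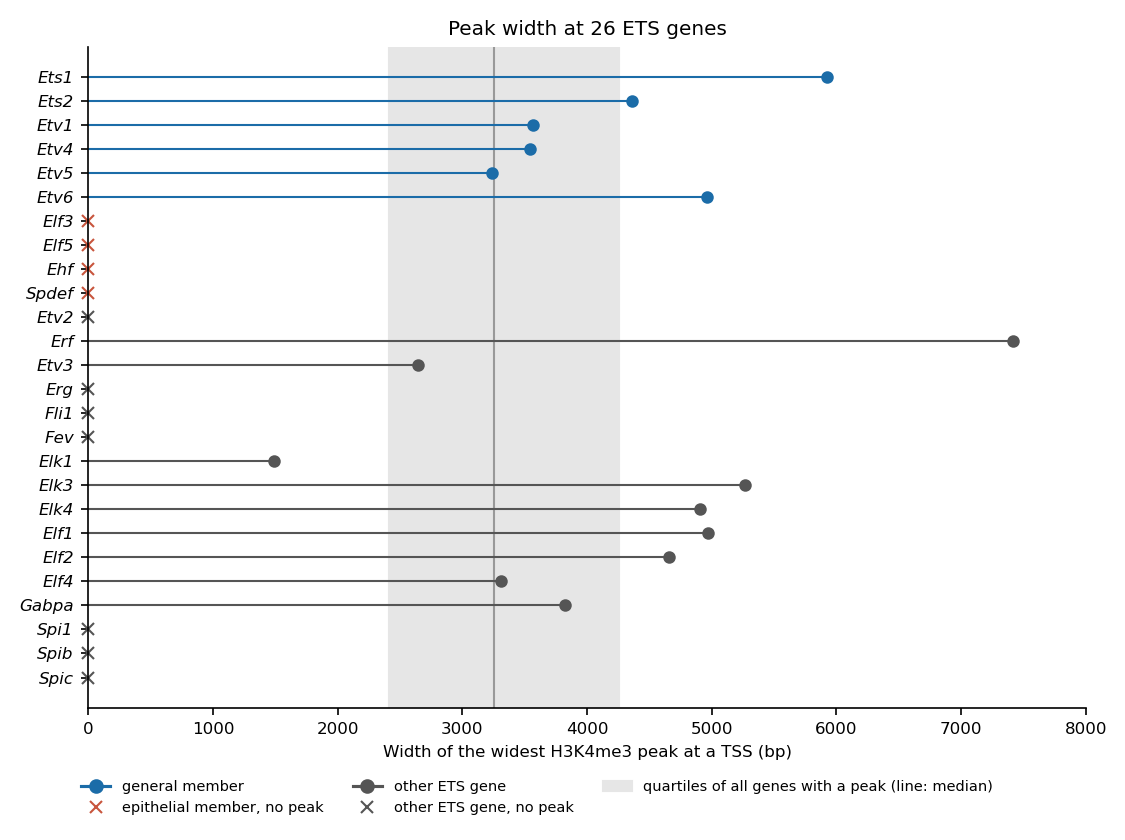
Width in bp of the widest H3K4me3 peak at a TSS of 26 ETS genes, with crosses for genes without a peak and a grey band for the quartiles, 2410.5 to 4258 bp, of all genes with a peak. The 6 general members lie between 3237 and 5926 bp and the 4 epithelial members have no peak.

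Sorted by island, 14 of 16 ETS genes with a stricter island had a peak, the exceptions being Fli1 and Fev. Of the 4 with a weaker island only, Elk1 had a peak while Elf3, Erg and Spi1 had none, and of all genes of this kind 44% had one. The 6 ETS genes without an island, Elf5, Ehf, Spdef, Etv2, Spib and Spic, had no peak. Thus every ETS gene with a peak except Elk1 had a stricter island, and so did 2 without a peak. Which of the 2, island state or cell type, goes with the peaks cannot be told apart among these 10 genes, because every general member had a stricter island and no epithelial member did.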

How the data were processed

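H3K4me3 ChIP-seq of C127 cells was analysed from 1 deposited list, in which the authors give the chromosome, start and end of each peak and no other value. The methods of the study state that bowtie2 was used with the mm10 build, that only uniquely placed reads were kept, that SAMtools took out duplicates, and that MACS called peaks for each replicate against a control. Those found in all replicates were kept, and close ones were merged. The submitters' processing notes name Bowtie2, SAMtools and MACS2 without versions. Heights were not given, so replicates could not be compared and depth is unknown. The smallest gap between peaks was 251 bp.

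Of the 13451 peaks, 13447 lay on the 20 chromosomes used. TSSs were those of basic transcripts of GENCODE vM21. A peak was counted at a TSS within 250 bp of it, and percentiles of width were taken among genes with a peak. CpG islands were found in the GRCm38.p6 sequence with repeats kept (104666 islands and 15892 stricter ones), and their methylation was not measured. Distances were read from the edge of the nearest peak. Alternatives changed the distance, the transcripts, the peak width and the island criteria. No test was made. The search was tested on simulated data. Scripts ran in Python 3.11.15 with pandas 2.3.3, scipy 1.17.1 and numpy 2.4.6, and figures were drawn with matplotlib 3.10.9.

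All 10 members and 16 other ETS genes were named, with genes that share a peak with a member or lie nearest to a member without one. Etv3l was looked up and is not a coding gene in the annotation. Members, lists and rules were chosen with earlier results of these data known.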

Additional observations from a re-analysis of the deposited data

How the results depend on the processing

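Of 38 alternative values, 34 stayed within the limit set for no change. For the ETS genes these equalled the main value, and for the share of all genes they lay within its 95% Wilson interval. That interval served only as a fixed limit and measures no spread between replicates or settings. With distances of 0 and 1000 bp, all annotated transcripts, 1 TSS per gene, peaks of at least 1000 bp or RefSeq transcripts (the last chosen after seeing the data), 6 general, 0 epithelial and 9 other ETS genes had a TSS peak, no ETS gene gained or lost one, and the median width of the general members stayed at 3961.5 bp. The share of all genes with a peak, 49.4%, was 48.9% at 0 bp, 50.0% at 1000 bp and with RefSeq transcripts, 50.2% with all annotated transcripts, 47.6% with 1 TSS per gene and 48.2% with peaks of at least 1000 bp. Under stricter islands 0 epithelial members had an island promoter, against 1, because the Elf3 island, 281 bp long with a ratio of 0.60, falls short of both the stricter length and the stricter ratio. No paired analysis was possible because the values come from no test and from 1 list without a value per replicate, and for the same reason no replicate could be left out. A peak missed in 1 replicate is left out of such a list, so a gene without a peak is not shown to lack H3K4me3.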

Other observations

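The broadly expressed ELF genes each had 2 separate TSS peaks. They measured 4968 and 2625 bp at Elf1, 4660 and 4119 bp at Elf2 and 3313 and 1946 bp at Elf4. Elf1 shared a promoter peak with Wbp4, and Gabpa shared its peak of 3820 bp with Atp5j, which encodes a subunit of ATP synthase. Intronic peaks without a CpG island were also present at Elk3 (2122 bp, 37284 bp downstream of the TSS), Elf2 (1541 bp) and Elf4 (823 bp).

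Spib, a factor of B cells, had no peak at its TSS but 1 of 1033 bp over its 3′ end, 6021 bp downstream, with a CpG island of 362 bp and no annotated TSS. Erg lay in a peak-free stretch of 1101953 bp, the longest among the 11 ETS genes without a TSS peak.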
